A study of Homo sapiens with 6 samples.

Results

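Metallothioneins are small, cysteine-rich proteins that bind zinc and copper ions in the cell and are made in large amounts by liver cells. Their genes sit side by side on one chromosome and are switched on by zinc, cadmium, glucocorticoids and oxidants. MTF1, metal regulatory transcription factor 1, is a zinc finger protein that senses zinc and drives them by binding short metal response elements in their promoters. The genes described here are the 9 whose symbol was MT2A, MT1A, MT1E, MT1F, MT1G, MT1H, MT1M, MT1X or MTF1, out of 27689 gene symbols in the table. All 9 were found, with 11 transcript rows of 63714.

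Polyadenylated RNA was sequenced from Huh7, an established line from a human hepatocellular carcinoma, in 3 NACER_ASO and 3 NC libraries. NACER is a long non-coding RNA, and the series compares cells in which it was knocked down (NACER_ASO) with NC cells, without spelling out ASO or NC. Every library carried a set number, 2, 5 or 6, with 1 NACER_ASO and 1 NC library in each set, and the labels do not say what a set is. Whether sets were separate cultures is not stated, so the p-values reflect only how much these libraries varied, and some of that may be technical. Expression of NACER is not analysed here.

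Values are FPKM as the authors deposited them, that is, fragment numbers corrected for transcript length and library size. The value of a gene is the sum over its transcripts. Differences are given as log2(FPKM + 1), a scale that makes changes of low genes look smaller, and were tested with limma across the 13576 genes that had at least 1 FPKM in at least 3 libraries. A call means a Benjamini-Hochberg adjusted p under 0.05 over all of these genes.

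The libraries stood apart by set. Low values implied roughly 15.8 to 28.8 M fragments per library, the lowest in NC set 2, and 12738 to 14635 genes reached 1 FPKM. The hepatocyte markers of the labelled line were present throughout, but their levels moved with the set. The FPKM summed over 10 of them was 6300 in NACER_ASO and 6146 in NC of set 5, against 3862 and 3531 in set 2 and 1665 and 1670 in set 6. AFP, the fetal albumin-like protein of hepatoma cells, had 2892 FPKM in NACER_ASO and 2728 in NC of set 5, 912.3 and 766.7 in set 2 and 228.1 and 223.6 in set 6. APOA1, the main protein of high-density lipoprotein, averaged 498 FPKM in set 5 and 15.9 in sets 2 and 6. Of the 10 markers, 8 were called higher and 2 lower in set 5 than in sets 2 and 6, beside 24.1% and 46.6% of all genes tested. The 2 called lower were APOA2, which averaged 62.7 FPKM in set 5 and 416 in sets 2 and 6, and FGB, at 53.4 and 147. Of 4 bile duct markers 2 were called in each direction. KRT19, a duct keratin, had 2.597 FPKM in NACER_ASO and 1.148 in NC of set 5, against 67.96 to 103.1 in sets 2 and 6, and KRT7 was listed at 0 in both set 5 libraries and passed the filter only through the other sets. EPCAM went the other way, with 213.5 and 200.3 FPKM in NACER_ASO and NC of set 5 and 18.1 to 32.2 in sets 2 and 6, and it carried most of the summed level of the 4 in set 5 (246.8 to 261.0 FPKM, against 118.4 to 160.6 in sets 2 and 6). Of 4 fibroblast markers, COL1A1 and PDGFRB were tested and called lower in set 5, PDGFRB having passed the filter only through sets 2 and 6, and in set 5 the 4 summed to 1.549 to 1.724 FPKM, against 4.956 to 15.97 in sets 2 and 6. The 3 endothelial markers summed to at most 1.068 FPKM in any library, with CDH5 listed at 0 in 4 libraries, and none of them was tested. The immune markers were mainly CD68 (37.0 to 66.9 FPKM, not called for set 5), with PTPRC and CD3E under 1 FPKM everywhere and listed at 0 in 1 and 3 libraries. Their part in the metallothionein values was not tested. Whether the sets came from the same stock of Huh7 cells is not stated, so in every difference between sets given here a difference in stock, in culture or in handling cannot be told apart.

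The 8 metallothionein genes lie within 75.6 kb on chromosome 16, from 56642478 to 56718108 in hg19, and each makes a short messenger RNA of 396 to 506 bases. MT2A is at the lower end of this stretch, at 56642478 to 56643409, and MT1X at the upper end, at 56716382 to 56718108. MTF1 is on chromosome 1, from 38275239 to 38325292, with a single listed transcript of 7972 bases. The promoter sequences of RefSeq (build GRCh38.p14) held 4 of the 9 genes, MT2A, MT1X, MT1H and MTF1. The 250 bases before the start of the 3 metallothionein genes are shown because MTF1 acts through elements of this kind. They run 5′ to 3′ on the plus strand, and capitals mark the core of the metal response element, TGCACNC or TGCGCNC on either strand.
MT2A, chr16:56608334-56608583: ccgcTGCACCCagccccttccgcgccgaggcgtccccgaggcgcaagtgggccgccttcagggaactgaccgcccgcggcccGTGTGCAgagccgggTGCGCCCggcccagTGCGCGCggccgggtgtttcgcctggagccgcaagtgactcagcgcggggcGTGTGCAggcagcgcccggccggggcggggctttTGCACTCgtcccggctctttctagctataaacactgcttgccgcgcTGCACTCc
MT1X, chr16:56682220-56682469: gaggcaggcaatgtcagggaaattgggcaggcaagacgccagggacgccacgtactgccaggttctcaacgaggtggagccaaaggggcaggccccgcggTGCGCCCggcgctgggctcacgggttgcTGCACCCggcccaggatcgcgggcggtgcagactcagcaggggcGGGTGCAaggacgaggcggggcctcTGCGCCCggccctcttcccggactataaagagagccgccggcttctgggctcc
MT1H, chr16:56669564-56669813: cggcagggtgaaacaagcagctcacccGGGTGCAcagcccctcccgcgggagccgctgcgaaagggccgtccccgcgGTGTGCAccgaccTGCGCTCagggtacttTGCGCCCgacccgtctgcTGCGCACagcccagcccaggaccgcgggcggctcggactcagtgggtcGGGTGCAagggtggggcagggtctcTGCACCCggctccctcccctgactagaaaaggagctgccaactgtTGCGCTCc

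The MT2A window held 7 such cores, the MT1X window 4 and the MT1H window 8, and no 2 of them overlapped. Of 35116 promoters of the same length, 24.8% held at least 1 core, 0.370% at least 4 and 0.0513% at least 6. The window of MTF1 itself (minus strand) held 0. The core of the antioxidant response element, TGACNNNGC on either strand, was found once each in the MT2A and MT1X windows and not in the MT1H or MTF1 window, against 10.9% of all promoters with at least 1. A match is only a run of letters, and binding was not measured.

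**Figure D1:**
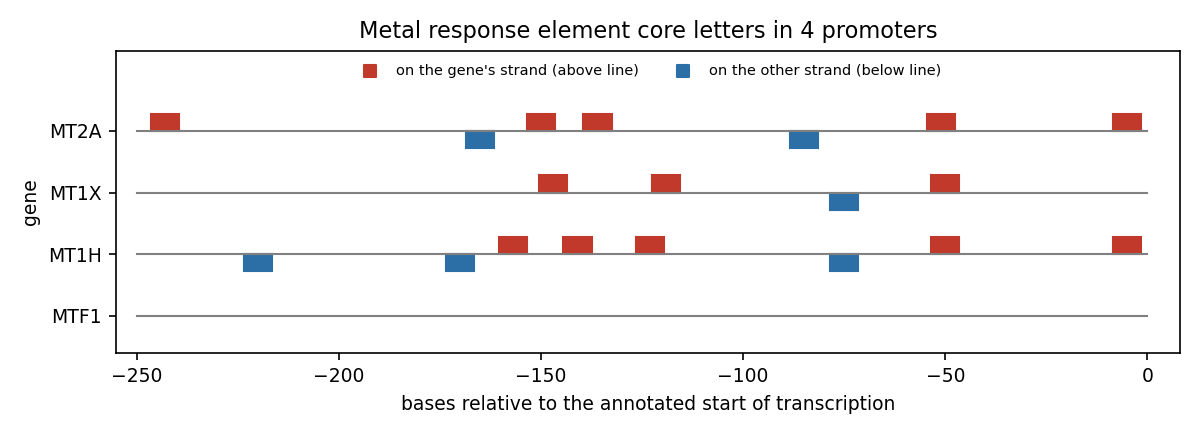
Positions of the metal response element core in the 250 bases before the annotated start of MT2A, MT1X, MT1H and MTF1, in bases relative to the start. Boxes above a line are matches on the strand of the gene and boxes below it are on the other strand. MT2A has 7 matches, MT1X 4, MT1H 8 and MTF1 0.

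The copies resemble each other closely. The 8 coding sequences compared, from GENCODE 29, were all 186 bases long because a sequence of MT2A's length was chosen where it existed. Set base against base, they differed at 9 to 21 positions in the 28 pairs (88.7% to 95.2% identity, median 91.9%). For MT1G the sequence is that of variant 1, the minor variant by FPKM. It held 11.2% to 18.7% of the gene in sets 2 and 6 and was listed at 0 in set 5. MT2A is shown with the member nearest to it in coding sequence (MT1G), the one farthest from it (MT1M) and MT1X, to let the shared stretches be seen. Capitals mark bases that differ from MT2A.
MT2A: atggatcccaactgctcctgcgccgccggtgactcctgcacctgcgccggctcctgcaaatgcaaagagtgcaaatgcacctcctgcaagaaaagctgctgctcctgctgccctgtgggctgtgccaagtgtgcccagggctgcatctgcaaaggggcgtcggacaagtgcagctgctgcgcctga
MT1G: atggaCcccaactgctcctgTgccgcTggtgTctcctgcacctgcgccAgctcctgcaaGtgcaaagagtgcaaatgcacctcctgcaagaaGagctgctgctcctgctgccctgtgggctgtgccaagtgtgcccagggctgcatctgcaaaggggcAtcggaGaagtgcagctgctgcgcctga
MT1M: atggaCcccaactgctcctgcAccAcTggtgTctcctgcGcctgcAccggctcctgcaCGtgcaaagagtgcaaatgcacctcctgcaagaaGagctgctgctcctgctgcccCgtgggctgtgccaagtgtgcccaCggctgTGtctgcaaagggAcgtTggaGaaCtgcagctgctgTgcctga
MT1X: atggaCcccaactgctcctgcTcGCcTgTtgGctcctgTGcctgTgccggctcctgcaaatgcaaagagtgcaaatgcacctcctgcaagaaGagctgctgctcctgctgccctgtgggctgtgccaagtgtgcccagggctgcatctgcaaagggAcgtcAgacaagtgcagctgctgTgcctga

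MT1G differed from MT2A at 9 bases and shared an unbroken run of 65, MT1X differed at 14 with a run of 63, and MT1M at 19 with a run of 32. Of the 156 runs of 31 bases in each coding sequence, between 17.9% (MT1H) and 55.1% (MT1G) occurred also in another of the 8. Reads from such stretches can be divided among the copies, so the value of a single MT1 gene is less certain than the sum, and the lowest members are the least certain. How reads that map to several copies were treated is not given in the sources.

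MT2A, the most abundant member in all 6 libraries, had 202.9, 11.2 and 229.4 FPKM in NACER_ASO of sets 2, 5 and 6, and 312.3, 13.2 and 209.3 FPKM in NC of the same sets. Both set 5 libraries were far below the other 4, and NACER_ASO was below NC in sets 2 and 5 and above it in set 6. MT1E, the second in set 2, had 115.0, 3.02 and 52.7 FPKM in NACER_ASO and 204.2, 2.67 and 43.6 in NC. Set 5 was again far below the others, and set 6 was well below set 2 in both groups.

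MT1X had 74.7, 3.68 and 39.2 FPKM in NACER_ASO of sets 2, 5 and 6, and 113.3, 3.89 and 33.55 in NC. MT1G had 80.1, 0.529 and 29.6 FPKM in NACER_ASO and 177.8, 0.758 and 21.5 in NC. MT1G was thus under 1 FPKM in both set 5 libraries and yet stood above MT1X in both set 2 libraries. MT1F, which encodes a further isoform, had 23.0, 2.98 and 26.4 FPKM in NACER_ASO and 33.1, 4.205 and 25.9 in NC, so sets 2 and 6 lay close together.

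The other 3 metallothioneins were low. MT1A had 13.1, 1.13 and 8.07 FPKM in NACER_ASO of sets 2, 5 and 6, and 17.6, 1.51 and 6.51 in NC. MT1M had 10.1, 0.561 and 4.12 FPKM in NACER_ASO and 18.5, 0.299 and 3.403 in NC. MT1H had 3.77 and 0.748 FPKM in NACER_ASO of sets 2 and 6 and 8.92 and 1.24 in NC, and was listed at 0 in both set 5 libraries. All 3 were highest in set 2 and lowest in set 5 in both groups. At the rough depths above, the set 5 values of MT1M and MT1G rested on about 3.27 to 7.63 fragments and those of MT1A on 12.9 to 14.9, while the set 5 values of MT2A rested on 136 to 138.

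MTF1, their activator, varied far less, with 6.30, 3.62 and 6.03 FPKM in NACER_ASO of sets 2, 5 and 6 and 6.89, 3.79 and 5.84 in NC. Again both set 5 values were the lowest. Averaged over sets and ordered by the mean in NACER_ASO, the levels ran from MT2A (147.9 ± 119 FPKM in NACER_ASO and 178.3 ± 152 in NC, SD, n = 3 each) through MT1E (56.9 ± 56.1 and 83.5 ± 107), MT1X (39.2 ± 35.5 and 50.2 ± 56.6), MT1G (36.7 ± 40.2 and 66.7 ± 96.8) and MT1F (17.5 ± 12.6 and 21.1 ± 15.1) down to MT1A (7.42 ± 6 and 8.54 ± 8.24). MTF1 (5.32 ± 1.47 and 5.505 ± 1.58), MT1M (4.93 ± 4.82 and 7.39 ± 9.73) and MT1H (1.504 ± 1.99 and 3.39 ± 4.83) came last. In NC, MT1G stood above MT1X and MT1M above MTF1. No 2 neighbours in this order differed by more than the larger of their SDs, which hold the set differences. In bulk RNA, fewer expressing cells and less RNA per cell cannot be told apart.

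**Figure D2:**
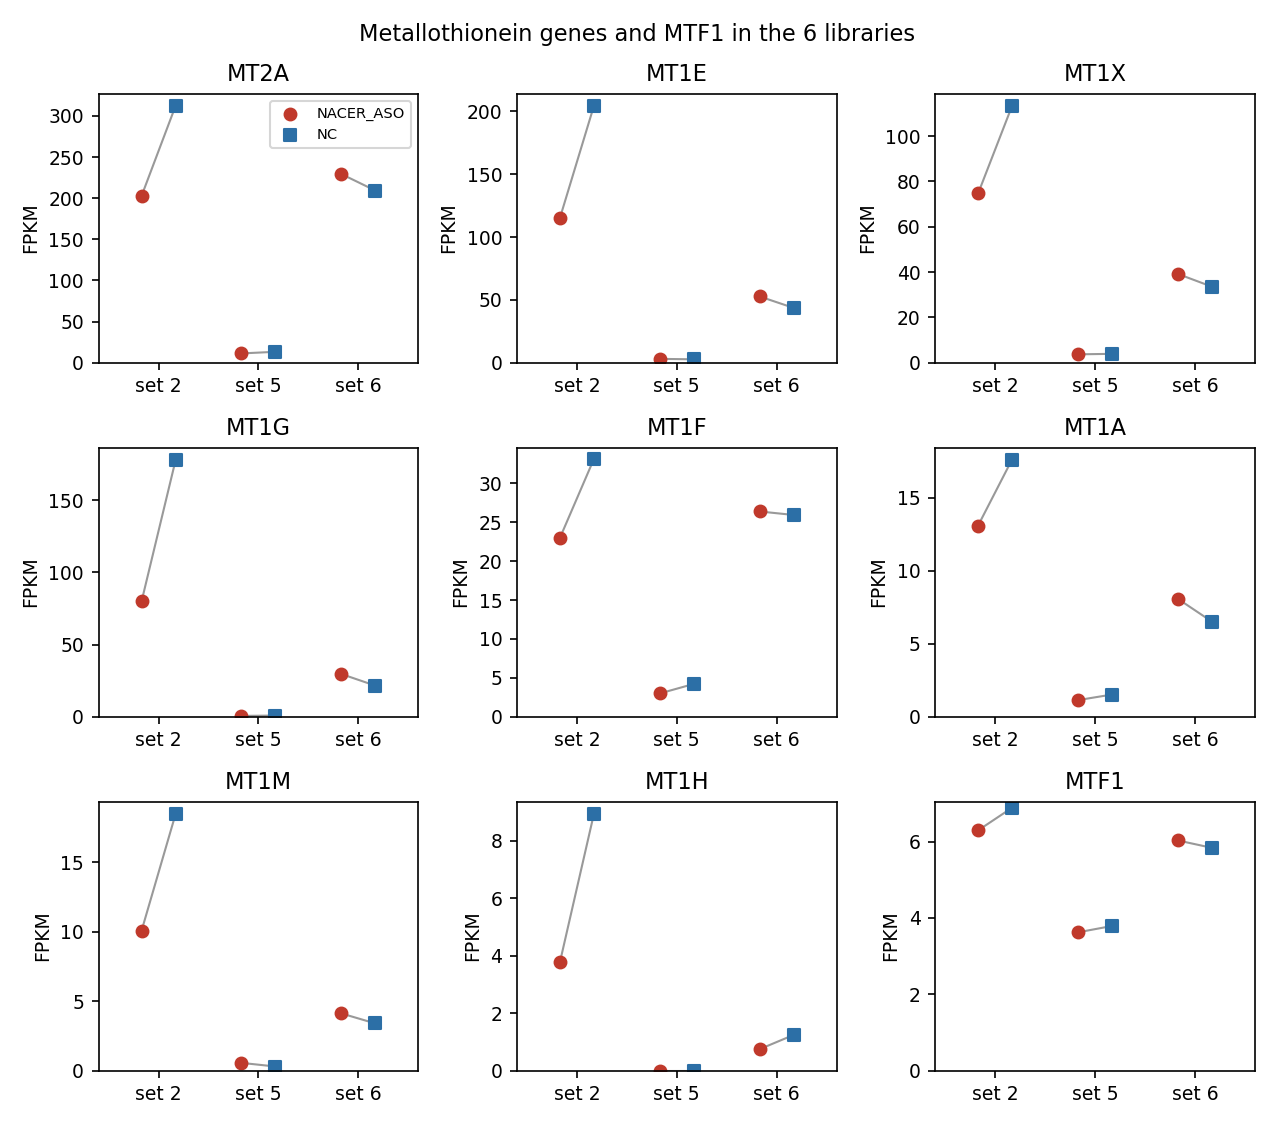
FPKM of each gene in the 6 libraries, with NACER_ASO (red circle) left of NC (blue square) in each set and a line joining the 2 libraries of a set. In every panel both set 5 libraries lie below the other 4, with MT2A at 11.2 and 13.2 FPKM and MT1H listed at 0.

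Set 5 had less of all 8 metallothionein messengers and of MTF1 than sets 2 and 6. MT2A averaged 12.2 FPKM over the 2 set 5 libraries and 238.5 over the 4 of sets 2 and 6, so set 5 held 5.13% of that level. MT1E was at 2.74% of the level in sets 2 and 6, MT1X at 5.81%, MT1A at 11.7% and MT1F at 13.3%. MT1M was at 4.76% and MT1G at 0.833%, both from set 5 values under 1 FPKM, while MTF1 was at 59.2%. The 8 genes summed to 23.1 and 26.5 FPKM in NACER_ASO and NC of set 5, against 522.6 and 885.7 in set 2 and 390.2 and 345.1 in set 6.

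All 9 genes were tested, and 6 of them (MT2A, MT1A, MT1E, MT1F, MT1X and MTF1) had at least 1 FPKM in every library. MT1G, MT1H and MT1M passed the filter only through sets 2 and 6, so their difference was partly given by passing. In limma with set and group as terms, set 5 minus the mean of sets 2 and 6 was -4.16 for MT2A (SE 0.145, adjusted p = 8.14e-06), -4.50 for MT1E (SE 0.220, adjusted p = 2.27e-05) and -3.62 for MT1X (SE 0.159, adjusted p = 1.61e-05). It was -2.61 for MT1F (SE 0.121, adjusted p = 1.91e-05), -2.32 for MT1A (SE 0.151, adjusted p = 5.92e-05) and -0.62 for MTF1 (SE 0.091, adjusted p = 0.00137).

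The limma adjusted p of the 3 that were under 1 FPKM in set 5 was 3.82e-05 for MT1G, 0.000543 for MT1H and 0.000213 for MT1M. These calls stand in a table where 70.7% of genes were called for the same contrast, 46.6% as lower and 24.1% as higher in set 5, so a call by itself says little. Both set 5 libraries lay below the other 4 in 41.1% of genes. The median difference of all genes was -0.22 and the lowest 5% of genes began at -1.68, whereas the 5 metallothioneins with at least 1 FPKM in every library lay between -2.32 and -4.50. Of all genes, MT1E stood at percentile 0.206, MT2A at 0.287 and MTF1 at 28.1.

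With median-of-ratios scaling the median of all genes was -0.032 in place of -0.221, and 4464 genes were called higher and 4871 lower in set 5, where the FPKM as deposited gave 3270 and 6327. Under that scaling MTF1 was at -0.443 (limma adjusted p = 0.00468) and MT2A at -3.95 (adjusted p = 4.63e-06). All 9 genes kept their direction and their call in each alternative that could be fitted, with limma adjusted p up to 0.0201 for MTF1 (without NACER_ASO set 5) and 0.00463 for the metallothioneins.

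**Figure D3:**
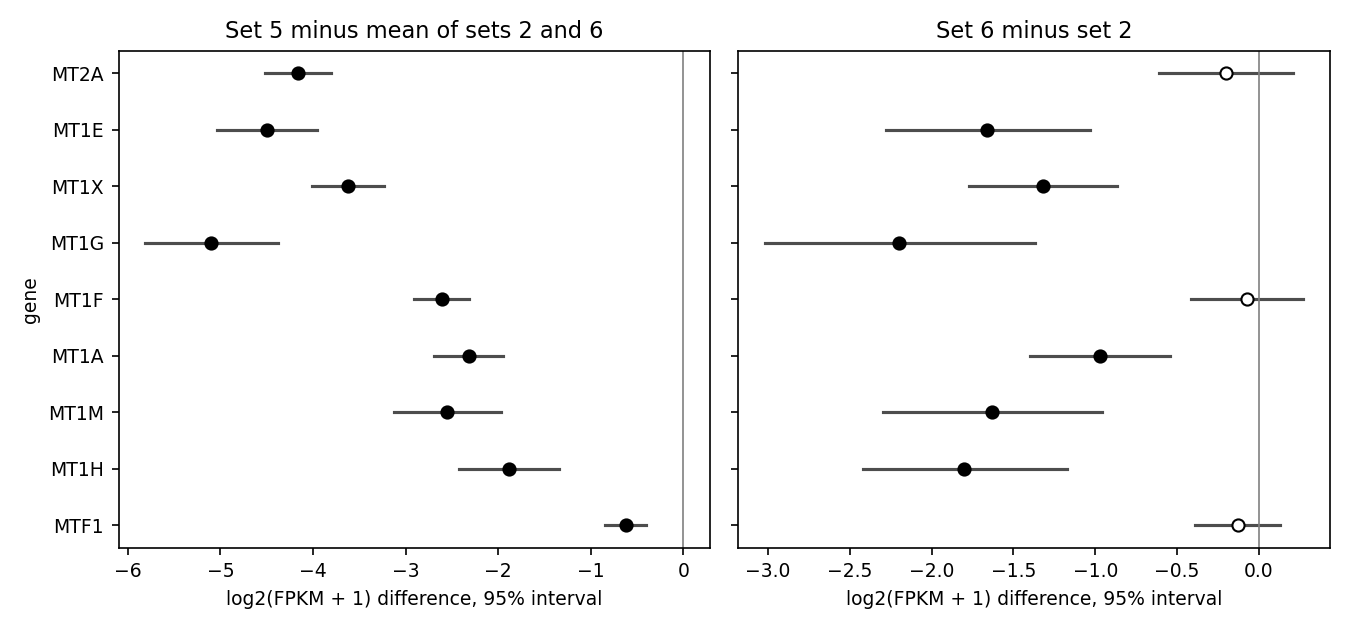
Differences between sets from the limma fit with set and group as terms, in log2(FPKM + 1), with 95% intervals. Filled points were called and open points were not. On the left all 9 genes are below 0, from MTF1 at -0.62 to MT1G at -5.10, and on the right MT2A, MT1F and MTF1 have intervals that include 0.

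Set 6 differed from set 2 gene by gene, and here the members split. MT1G averaged 25.5 FPKM in set 6 and 128.9 in set 2, MT1H 0.995 and 6.34, MT1M 3.76 and 14.3, MT1E 48.2 and 159.6, MT1X 36.3 and 94.0 and MT1A 7.29 and 15.3. The difference, set 6 minus set 2, was -2.20 for MT1G (SE 0.336, limma adjusted p = 0.00407), -1.80 for MT1H (SE 0.253, adjusted p = 0.00316), -1.66 for MT1E (SE 0.254, adjusted p = 0.00409) and -1.63 for MT1M (SE 0.272, adjusted p = 0.00537). MT1X was at -1.32 (SE 0.184, adjusted p = 0.00307) and MT1A at -0.97 (SE 0.175, adjusted p = 0.00674). These 6 were called lower, beside 27.3% of all genes called lower and a median difference of -0.039 over all genes. MT1H passed the filter only through both set 2 libraries and NC set 6, so its difference was partly given by passing.

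MT2A averaged 219.4 FPKM in set 6 and 257.6 in set 2, and MT1F 26.2 and 28.04, and neither was called (-0.20, 95% interval -0.61 to 0.21, limma adjusted p = 0.361, and -0.07, interval -0.42 to 0.27, adjusted p = 0.685). In MT2A the 2 groups disagreed, with 229.4 FPKM in set 6 and 202.9 in set 2 of NACER_ASO but 209.3 and 312.3 in NC. Without NACER_ASO set 2 the MT2A difference was -0.488 (adjusted p = 0.042), and without NACER_ASO set 6 it was -0.474 (adjusted p = 0.0361). It was 0.0895 without NC set 2 and 0.0755 without NC set 6. MTF1 had a difference of -0.13 (interval -0.39 to 0.13, adjusted p = 0.345). The order set 5 below set 6 below set 2 held in both groups for 6 of the 8 metallothioneins, all but MT2A and MT1F, and for 19.3% of all genes tested.

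The make-up of the family shifted with the set. MT2A took 38.8% of the summed metallothionein FPKM in NACER_ASO and 35.3% in NC of set 2, 48.6% and 49.8% in set 5 and 58.8% and 60.7% in set 6. MT1G took 15.3% and 20.1% in set 2, 2.29% and 2.85% in set 5 and 7.58% and 6.24% in set 6. MT1F went the other way in set 5, where it took 12.9% and 15.8%, against 4.39% and 3.74% in set 2 and 6.76% and 7.52% in set 6. The pairs of libraries from different sets did not overlap for MT2A, MT1F, MT1G, MT1H and MT1X, and did overlap for MT1A, MT1E and MT1M. MT1X separated narrowly (14.3% in NACER_ASO set 2 and 14.7% in NC set 5), and MT1H was listed at 0 in set 5. How often all genes separate by set in this way was not counted, so the lack of overlap says little about the family. Shares of a single sum depend on each other. These shares were not tested, and those of set 5 rest on few fragments.

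**Figure D4:**
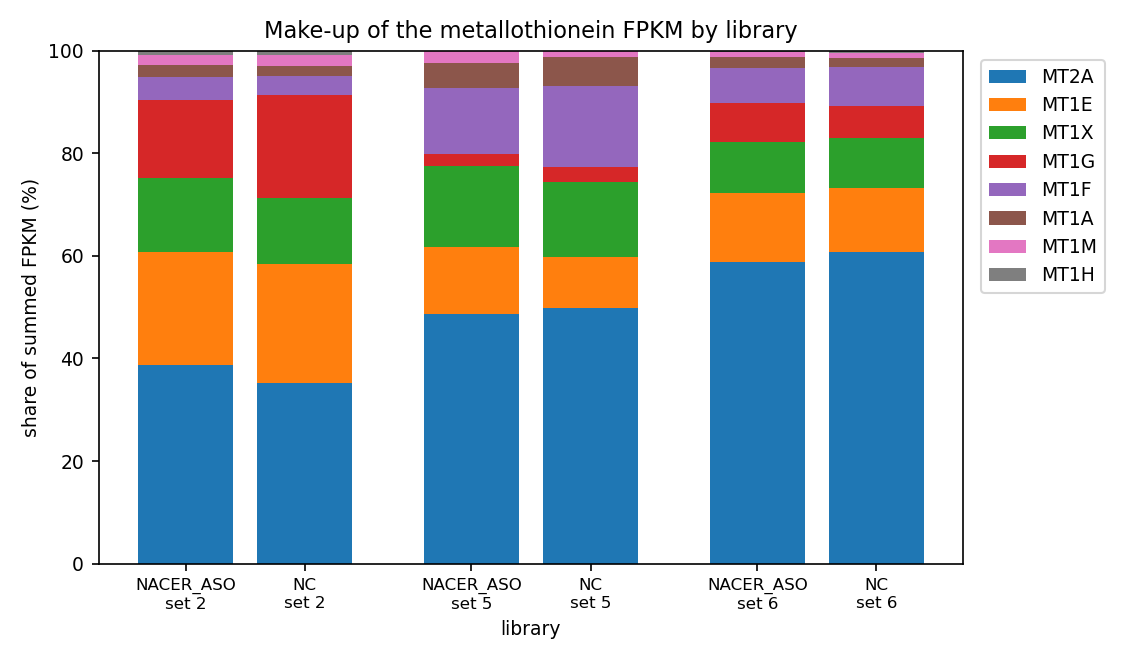
Share of the summed FPKM of the 8 metallothionein genes taken by each gene, in percent, by library, with NACER_ASO left of NC in each set. MT2A makes up 35.3% to 60.7%, MT1G is largest in set 2 (15.3% and 20.1%) and MT1F in set 5 (12.9% and 15.8%).

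Of the members, MT1G and MT1F had 2 transcript rows each. MT1G variant 2 held 81.3% to 88.8% of the FPKM of the gene in sets 2 and 6, and variant 1 was listed at 0 in set 5. MT1F variant 1 held 83.6% to 89.9% in sets 2 and 6 and, in set 5, 97.9% in NACER_ASO and 77.1% in NC, at totals of 2.98 and 4.205 FPKM. These divisions are the authors' estimates and were not tested.

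Between NACER_ASO and NC no metallothionein and no MTF1 difference was called. The limma fit with the group as its only term called 0 of 13576 genes (0%), with 20 (0.147%) at an unadjusted p under 0.05, and the adjusted p of each of the 9 was 0.999994. A fit that blocked on the set also called 0, with 1685 (12.4%) at an unadjusted p under 0.05. The exact permutation p, two-sided, was between 0.6 and 1 for the 9 genes, and 3 against 3 libraries cannot go below 0.1. That permutation ignored the set, so the large set differences could hide a difference within sets.

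The direction of the listed difference between NACER_ASO and NC was not the same in every set. In set 2 all 8 metallothioneins were lower in NACER_ASO, with ratios from 0.422 (MT1H) and 0.450 (MT1G) to 0.743 (MT1A), where 40.8% of all genes were lower and 59.1% higher. The log2 differences there lay between -0.40 (MT1A) and -1.14 (MT1G), while the lowest 5% of all genes began at -0.445. In set 6, 7 of the 8 were higher in NACER_ASO, with ratios from 1.02 (MT1F) to 1.37 (MT1G), where 62.9% of all genes were higher and 37.1% lower, and MT1H was lower at 0.602. In set 5, 5 were lower and 2 (MT1E and MT1M) higher in NACER_ASO, where 44.9% of all genes were lower and 54.5% higher, and MT1H was at 0 in both libraries. With 1 library per group in a set, whether the difference between NACER_ASO and NC varies with the set was not tested.

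MT2A, MT1A, MT1G, MT1X and MTF1 were lower in sets 2 and 5 and higher in set 6 in NACER_ASO, as was MT1F, a pattern held by 9.6% of all genes. None of the 9 was lower or higher in all 3 sets, where 11% of all genes were lower and 27.2% higher throughout. MT1H did not change direction, being lower in NACER_ASO in sets 2 and 6 and tied at 0 in set 5. In the fit blocked on the set, the log2 difference was -0.23 for MT2A (95% interval -0.57 to 0.10, limma adjusted p = 0.515), -0.30 for MT1G (interval -0.97 to 0.37, adjusted p = 0.668) and -0.14 for MT1E (interval -0.65 to 0.37, adjusted p = 0.803). It was -0.15 for MT1X (interval -0.52 to 0.22, adjusted p = 0.703), -0.12 for MT1A (interval -0.47 to 0.23, adjusted p = 0.744) and -0.11 for MT1M (interval -0.66 to 0.44, adjusted p = 0.862). MT1F (-0.29, interval -0.57 to -0.01, adjusted p = 0.390) and MT1H (-0.47, interval -0.98 to 0.04, adjusted p = 0.427) had the smallest p of the 9, and MTF1 was at -0.04 (interval -0.25 to 0.17, adjusted p = 0.866). The median over all genes was 0.041. Without the block the interval of MT2A was -4.01 to 3.54, since the set differences then stay in the error.

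NC set 2 held the highest metallothionein values of all 6 libraries, at 885.7 FPKM in sum, and was also the shallowest library. On the log2 scale the summed metallothionein FPKM was -0.258 in NACER_ASO minus NC with all libraries and 0.803 without NC set 2. It was 1.15 without NACER_ASO set 5 and 0.125 without NC set 6. Such fits leave the sets unbalanced between the groups. The ratio of the sums within a set, which is free of that, came to 0.590 for set 2, 0.872 for set 5 and 1.13 for set 6.

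**Figure D5:**
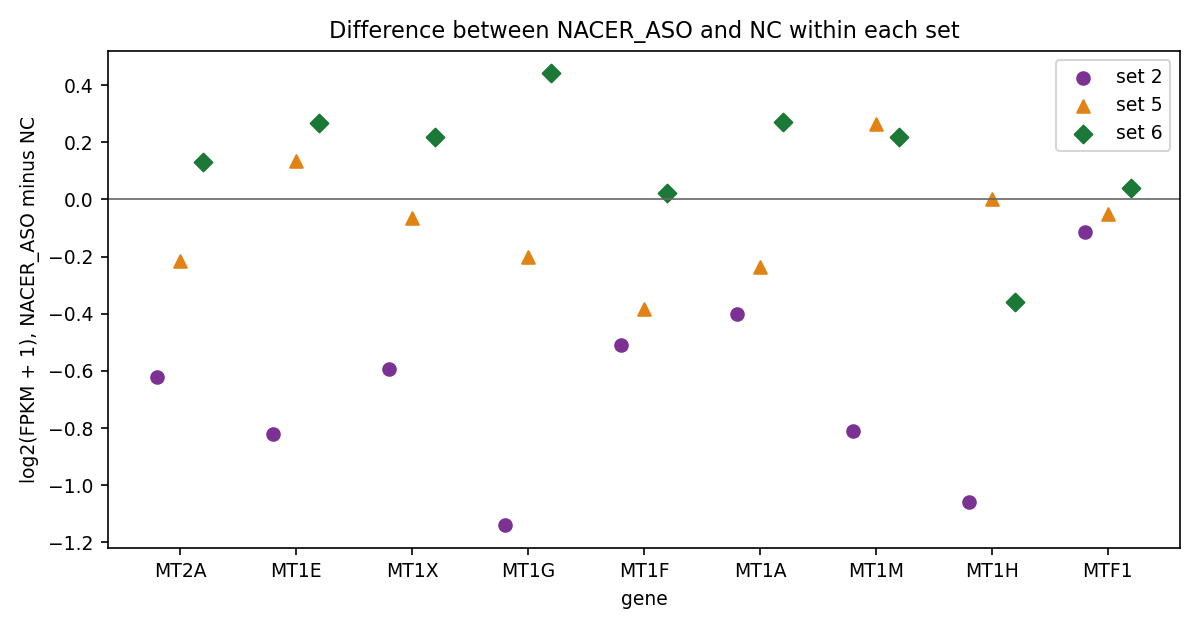
Difference between NACER_ASO and NC in log2(FPKM + 1) for each gene within sets 2 (circles), 5 (triangles) and 6 (diamonds), with 1 library of each group per set. All set 2 points lie below 0, down to MT1G at -1.14, and all set 6 points lie above 0 but for MT1H at -0.36.

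Other metallothionein symbols were searched in the table, and 8 of 12 were present. MT1L, a pseudogene, was the only one tested, with 4.11, 0 and 8.33 FPKM in NACER_ASO of sets 2, 5 and 6 and 5.99, 0 and 4.86 in NC, and was listed at 0 in both set 5 libraries. It passed the filter only through sets 2 and 6, so its call as lower in set 5 (limma adjusted p = 0.000136) was partly given by passing. MT1B, MT1JP, MT1IP and MT1DP were under 8 FPKM everywhere and at or under 0.125 FPKM in set 5. MT3, known from brain, MT4, known from squamous epithelium, and MT1HL1 were listed at 0 in all 6 libraries.

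Zinc exporters move zinc out of the cytosol, and 6 of 10 were tested. SLC30A1, the plasma membrane exporter and itself a target of MTF1, had 51.97, 9.405 and 17.7 FPKM in NACER_ASO of sets 2, 5 and 6 and 73.6, 10.1 and 20.5 in NC. It was thus highest in set 2 and lowest in set 5 in both groups, as 6 of the metallothioneins were. Its difference was -1.73 for set 5 minus sets 2 and 6 (SE 0.097, limma adjusted p = 3.69e-05) and -1.65 for set 6 minus set 2 (SE 0.112, adjusted p = 0.000675). Of the 6 exporters 3 were called lower and 1 higher in set 5, beside 46.6% and 24.1% of all genes. The 1 called higher was SLC30A10, a manganese exporter. It had 11.9 and 13.3 FPKM in NACER_ASO and NC of set 5 and 1.28 to 3.34 in sets 2 and 6.

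SLC30A7, an exporter into the Golgi, was called lower in set 5 (-0.52, SE 0.095, limma adjusted p = 0.00351), as was SLC30A5 (-0.32, SE 0.091, adjusted p = 0.0206). SLC30A9 was not called (0.18, adjusted p = 0.113). None of the 6 was called between NACER_ASO and NC, where SLC30A1 was lower in all 3 sets (-0.26, SE 0.092 and adjusted p = 0.360 with the set as a block).

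Zinc importers bring zinc into the cytosol. Of 12 tested out of 14, 4 were called higher and 4 lower in set 5, beside 24.1% and 46.6% of all genes. SLC39A5, an importer of liver, gut and pancreas, had 24.9 and 24.3 FPKM in NACER_ASO and NC of set 5, against 0.4002 to 1.36 in sets 2 and 6 (difference 3.80, SE 0.103, limma adjusted p = 3.77e-06). SLC39A1, a widely expressed importer, was lower in set 5 (-0.56, SE 0.072, adjusted p = 0.000788), as was the low SLC39A2 (-1.20, SE 0.128, adjusted p = 0.000384), which passed the filter only through libraries of sets 2 and 6. In the limma fit without the set as a block, the importers with the smallest p between NACER_ASO and NC were SLC39A8, SLC39A9 and SLC39A11, at 0.29, 0.09 and 0.20. None was called in either fit, with adjusted p = 0.358, 0.599 and 0.478 once the set was a block.

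Of 11 copper genes tested out of 12, 4 were called higher and 5 lower in set 5, beside 24.1% and 46.6% of all genes. ATP7B, the copper pump that is defective in Wilson disease, had 9.09 and 9.56 FPKM in NACER_ASO and NC of set 5, against 1.54 to 3.34 in sets 2 and 6 (difference 1.68, SE 0.131, limma adjusted p = 0.000112). COX17, a copper chaperone for the mitochondrial oxidase, was lower in set 5 (-0.83, SE 0.070, adjusted p = 0.000149), as was COMMD1, a copper homeostasis factor (-1.25, SE 0.089, adjusted p = 8.11e-05). Between NACER_ASO and NC, SLC31A2, ATOX1 and CP were at 0.25, 0.23 and 0.17, and none was called (adjusted p = 0.366, 0.338 and 0.530 with the block in limma).

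Genes induced by heavy metals and oxidants were all tested. Of these 10, 2 were called higher and 6 lower in set 5, beside 24.1% and 46.6% of all genes. Their median was -0.30, beside -0.22 for all genes. All 10 had a mean below NC in NACER_ASO (median -0.15, beside 0.04 for all genes), and none was called. HSPA1A (-0.003), DNAJB1 (-0.005) and HSPA1B (-0.026) were close to 0. Within single sets, 37.1% to 44.9% of all genes were lower in NACER_ASO. By the same measure, 10 of the 11 copper genes were higher and 1 lower (median 0.17). Besides SLC30A1, the set 5 differences included 0.50 for GCLC, a subunit of the glutathione synthesis enzyme (SE 0.063, limma adjusted p = 0.000721). The other gene called higher was HMOX1, at 1.41 (SE 0.201, adjusted p = 0.00124). It averaged 42.8 FPKM in set 5 and 16.1 in sets 2 and 6, the opposite direction to the metallothioneins. SRXN1, sulfiredoxin, was at -0.52 (SE 0.061, adjusted p = 0.000545). In set 6 minus set 2 the list split, with 4 of the 10 called higher and 3 lower, beside 20.9% and 27.3% of all genes. There SRXN1 was at 0.90 (adjusted p = 0.00089) and SLC30A1 at -1.65, while the MT1 genes were at or below -0.07. Between NACER_ASO and NC, SLC7A11, GCLC and TXNRD1, the cystine transporter, the glutathione enzyme subunit and thioredoxin reductase, were at -0.31, -0.21 and -0.21 with no call (adjusted p = 0.316, 0.329 and 0.325 with the block in limma).

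The 9 glucocorticoid-related genes were induced targets together with NR3C1, which encodes the glucocorticoid receptor itself. Of the 8 tested, 6 were called lower and 2 higher in set 5, beside 46.6% and 24.1% of all genes. Their median was -0.88, beside -0.22 for all genes. NR3C1 was among those called lower (-1.31, SE 0.111, limma adjusted p = 0.000155) and counts in that median. DUSP1, a phosphatase of MAP kinases, had 143.2, 8.80 and 101.0 FPKM in NACER_ASO of sets 2, 5 and 6 and 224.1, 9.32 and 97.5 in NC. The set 5 difference was -3.74 for DUSP1 (SE 0.143, limma adjusted p = 1.06e-05), -1.65 for TSC22D3, which encodes GILZ (SE 0.1, adjusted p = 4.66e-05), and -1.06 for KLF9 (SE 0.088, adjusted p = 0.000139). Between NACER_ASO and NC, FKBP5, a chaperone of steroid receptors, was at 0.28, TAT at 0.13 and SGK1 at -0.09, with no call (adjusted p = 0.360, 0.693 and 0.513 with the block in limma).

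The tested genes beside the cluster, within 500 kb of it, showed smaller set 5 differences than the metallothioneins. Of the 17 found there, 9 were tested, and 5 were called lower and 1 higher in set 5, with a median of -0.31. Among all genes 46.6% were called lower and 24.1% higher, with a median of -0.22. Neighbours under the filter were not tested. Of these, CETP averaged 0.122 FPKM in set 5 and 1.52 in sets 2 and 6, and GNAO1 0.0922 and 0.0313. HERPUD1, an endoplasmic reticulum stress gene, had the smallest p, at -1.12 (SE 0.068, limma adjusted p = 4.78e-05), and NUDT21, a polyadenylation factor, was at 0.47 (adjusted p = 0.00147). Between NACER_ASO and NC, CPNE2 and BBS2 were at 0.23 and 0.21 with no call (adjusted p = 0.348 and 0.434 with the block in limma).

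The genes outside the family whose values most resembled the metallothionein sum were found by the mean absolute difference of centred log2(FPKM + 1) over the 6 libraries. ESAM, a cell adhesion molecule, was nearest at 0.207, followed by MATN3, a matrix protein, at 0.210, DUSP1 at 0.239, DKK1, a secreted Wnt antagonist, at 0.245 and GABRE, a GABA receptor subunit, at 0.292. ESAM had 33.8, 0.603 and 26.3 FPKM in NACER_ASO of sets 2, 5 and 6 and 39.0, 0.526 and 24.5 in NC. DKK1 had 73.8, 3.27 and 66.7 FPKM in NACER_ASO and 82.2, 3.46 and 56.8 in NC. MATN3 had 84.0, 2.02 and 41.6 in NACER_ASO and 79.1, 2.02 and 43.0 in NC. The nearest to MTF1 were METTL5 (0.0223), CCDC28B (0.0232), MLH3 (0.0256), WHAMMP1 (0.029) and FASTKD5 (0.029), all lowest in set 5.

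Within the family, the same measure was smallest for MT1H with MT1M (0.298), MT1A with MT1M (0.303), MT1E with MT1G (0.319) and MT1A with MT1F (0.365). The distance from MTF1 was 0.754 for MT1A and 1.99 for MT1G, so MT1G was the member farthest from MTF1. The measure grows with the size of the set differences and rests on 3 sets.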

How the data were processed

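FPKM values per RefSeq transcript were deposited by the authors for 6 libraries, with a symbol, length and hg19 locus, per the file headers. Other deposited columns held the transcript length in bases. The submitters' processing notes name hg19, StringTie 1.3.3b, Bowtie2 2.2.6 and FastQC 0.11.5, with roles not given in the sources. Per the labels' protocols, libraries came from 1 ug of total RNA with a stranded mRNA kit. Reads were not counted here, so no count model was fitted.

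FPKM were summed per symbol, genes under 1 FPKM in more than 3 libraries were dropped, and log2(FPKM + 1) was fitted with limma 3.58.1 in R 4.3.3 (variance trend, two-sided, Benjamini-Hochberg, 0.05). The group contrast had no other term, and the set contrasts had set and group. Scripts were checked on simulated data. Same-set libraries correlated at 0.901, 0.966 and 0.898 in sets 2, 5 and 6 after subtraction of group means, so the set numbers pair the libraries. The pairing comes from the titles. Depth was estimated from the commonest small value of FPKM times length, taken as 1 fragment. Of low values, 41.4% to 54.3% were whole fragments to within 2%, too few to rebuild reads, so depths are rough. Coding sequences came from GENCODE 29 on GRCh38, promoters from RefSeq.

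Named genes were all 9 members, the 3 with the smallest p per list in the group fit and in the set 5 contrast, and the 5 nearest by pattern. Members and lists were chosen with earlier results of these data known. Others named were picked after their values were seen. One gene that the rule names is not reported here.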

Additional observations from a re-analysis of the deposited data

How the results depend on the processing

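The alternatives were the set number as a replicate block, a pseudocount of 0.1, no filter, a filter of 5 FPKM, median-of-ratios scaling, and each library or each set left out. The replicate block called 0 genes between NACER_ASO and NC, as did the fit without it. With the replicate block and 1 set left out the count ran from 0 to 95, being 13 without set 5 and 95 without set 6, and no member tested was among them (all 9 were tested without set 5, and MT1G, MT1H and MT1M were not tested without set 2 or without set 6). For set 5 against sets 2 and 6 the count was 9597, and 6931 to 9697 with 1 library left out. For set 6 against set 2 it was 6550, with 4310 under the filter of 5 FPKM (fewer genes tested) and 4364 to 5961 with 1 library left out, the lowest without NC set 6. All 9 genes kept their set 5 call in each alternative that gave a value. MT1F, at -0.074 for set 6 minus set 2, was at 0.00883 with median-of-ratios scaling and ran from -0.31 to 0.162 with 1 library left out, and MT2A from -0.488 to 0.0895. The cause was not tested. The other 7 genes kept their direction and side of the threshold for set 6 against set 2 in each alternative that gave a value.

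For NACER_ASO minus NC, leaving out 1 library unbalances the sets. The differences then ran from -1.63 to 1.15 for MT2A, -0.867 to 0.679 for MT1A, -1.71 to 1.29 for MT1E, -1.14 to 0.605 for MT1F, -2.03 to 1.37 for MT1G, -1.22 to 0.0372 for MT1H, -1.05 to 0.899 for MT1M, -1.37 to 1.04 for MT1X, -0.247 to 0.169 for MTF1 and -1.7 to 1.15 for the summed metallothionein FPKM. With the replicate block and 1 set left out they ran from -0.32 to 0.0171 for MT1A, -0.344 to 0.201 for MT1E and -0.329 to 0.0768 for MT1X, the highest without set 2. MT1M was at 0.0433 with a pseudocount of 0.1. MT1G, MT1H and MT1M were under the filter in some of the stricter or reduced tables. Depth limits MT1A, MT1G, MT1H and MT1M in set 5 most.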
